A study of Rattus norvegicus with 15 samples.

Results

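In a rat study of nerve ligation and herbal treatment, 10 immediate early and injury-response genes were followed: Fos, Fosb, Jun, Junb, Atf3, Egr1, Egr2, Nr4a1, Arc and Dusp1. They are 10 of the 34202 rows of the count tables and were chosen by name, through Ensembl identifiers listed with the gene set, and not by their values. Earlier results of these data were known when the choice was made. The identifiers were ENSRNOG00000008015 (Fos), ENSRNOG00000046667 (Fosb), ENSRNOG00000026293 (Jun), ENSRNOG00000042838 (Junb), ENSRNOG00000003745 (Atf3), ENSRNOG00000019422 (Egr1), ENSRNOG00000000640 (Egr2), ENSRNOG00000007607 (Nr4a1), ENSRNOG00000043465 (Arc) and ENSRNOG00000003977 (Dusp1). All 10 passed the filter on low counts, which kept 16522 rows in all. Egr2 passed it on counts of 1 to 15 per library and is described by its counts.

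The tissue was the L4-L6 spinal cord of the injured side, taken on postoperative day 10 from adult male Sprague-Dawley rats. Sham rats had the left sciatic nerve exposed without ligation. In chronic constriction injury (CCI), a model of neuropathic pain, 4 loose ligatures were tied around that nerve. CCI rats were left without drug or were given the whole Yuan-Hu Zhi Tong Prescription (YZP), its YH component or its BZ component. The doses were 10.8 g crude drug per kg of YZP, 7.2 g per kg of YH and 3.6 g per kg of BZ, for 5 days from day 6. A vehicle for the untreated groups is not named in the sources used here. The groups are called Sham, CCI, YZP, YH and BZ, the last 3 standing for CCI with that treatment (CCI+YZP, CCI+YH and CCI+BZ in the figures). Each of the 5 held 3 libraries from groups that, when ligated, had 7 rats each. Whether a library is 1 rat or a pool is not given in the labels, so p-values measure the spread between these libraries. Totals ran from 15093246 to 22757104 counts per library. The doses differ, so the treated groups are set side by side and compared only with CCI.

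Immediate early genes are switched on within minutes of a stimulus, without new protein synthesis, by kinases that act on the factors CREB and SRF at the gene's promoter. Fos, Fosb, Jun and Junb code for subunits of AP-1, a dimeric transcription factor. Egr1, Egr2 and Nr4a1 code for other transcription factors, Arc for a synaptic protein of excitatory neurons, and Dusp1 for a phosphatase that switches MAP kinases off again. Atf3 is a factor of the same bZIP class as Fos and Jun that is low in uninjured nervous tissue and is widely used as a marker of neurons with damaged axons. In the dorsal horn, Fos staining is a classical readout of recent noxious input.

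Levels are CPM, counts per 1000000 counts of a library after TMM scaling, and are compared within a gene and not between genes, since the lengths behind the counts are not given. The differences are log2 fold changes with standard errors (SE) from edgeR's quasi-likelihood model of all 15 libraries, with p-values adjusted over all 16522 genes and called under 0.05. In whole-tissue RNA, fewer cells of a type and less RNA per cell cannot be told apart.

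Promoter sequences are shown as background on the genes, and whether they bear on the levels in these libraries was not tested. RefSeq's table (build GRCr8) held a promoter for 6 of the 10 genes, and none for Fos, Jun, Atf3 and Arc. The 250 bases before the start site were searched on both strands. The motifs were the full CREB site TGACGTCA, its core TGACG, the CREB-site variant TGCGTCA, the AP-1 site TGAGTCA and the CArG box of SRF. The core lies inside the full site and, on the other strand, inside the variant. Capitals mark these matches in the windows below (CGTCA is the core on the other strand), each written 5′ to 3′ on the strand of the gene.
Dusp1 (chr10:17184666-17184751, plus strand, 187 to 102 bases before the start): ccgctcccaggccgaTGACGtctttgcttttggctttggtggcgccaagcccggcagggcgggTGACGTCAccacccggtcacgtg
Nr4a1 (chr7:134259888-134260104, plus strand, 250 to 34 bases before the start): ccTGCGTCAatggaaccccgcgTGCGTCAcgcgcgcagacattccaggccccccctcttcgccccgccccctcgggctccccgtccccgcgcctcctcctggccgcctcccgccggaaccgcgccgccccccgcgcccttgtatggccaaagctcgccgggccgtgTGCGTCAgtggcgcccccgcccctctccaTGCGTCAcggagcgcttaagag
Egr2 (chr20:21054488-21054539, minus strand, 98 to 47 bases before the start): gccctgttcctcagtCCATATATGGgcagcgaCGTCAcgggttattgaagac
Junb (chr19:40080956-40080990, plus strand, 170 to 136 bases before the start): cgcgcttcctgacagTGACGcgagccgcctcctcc
The full CREB site was found in Dusp1, 1 of the 6, and in 1.59% of all 33469 promoters. The core was found in 5 of the 6 (Dusp1, Egr1, Egr2, Junb and Nr4a1) and in 18.2% of all promoters. Nr4a1 alone of the 6 held the variant, at 4 places, and 1.66% of all promoters held it. The CArG box was found in Egr1 and Egr2, and in 1.5% of all promoters. The AP-1 site was found in none of the 6 and in 4.05% of all promoters. Fosb held none of these letters in the window searched. These are letter matches only.

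Of the 10 genes Atf3 differed most between libraries of a group. It stood at 1.16, 2.15 and 7.34 CPM in the Sham libraries (replicates 1, 2 and 3, the order used throughout) and at 14.8, 13.2 and 36.6 CPM in CCI. Every CCI library lay above every Sham library, as in 13.2% of all genes. YZP held 2.16, 38.6 and 3.33 CPM, YH held 22.7, 2.98 and 51.1 CPM, and BZ held 36.6, 1.64 and 1.97 CPM. Each treated group thus had libraries as high as CCI and libraries within the Sham range. The highest library of a group exceeded the lowest 17.8-fold in YZP, 17.1-fold in YH and 22.2-fold in BZ, against 2.76-fold in CCI and 6.32-fold in Sham. The counts behind these levels ran from 23 to 878.

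**Figure D1:**
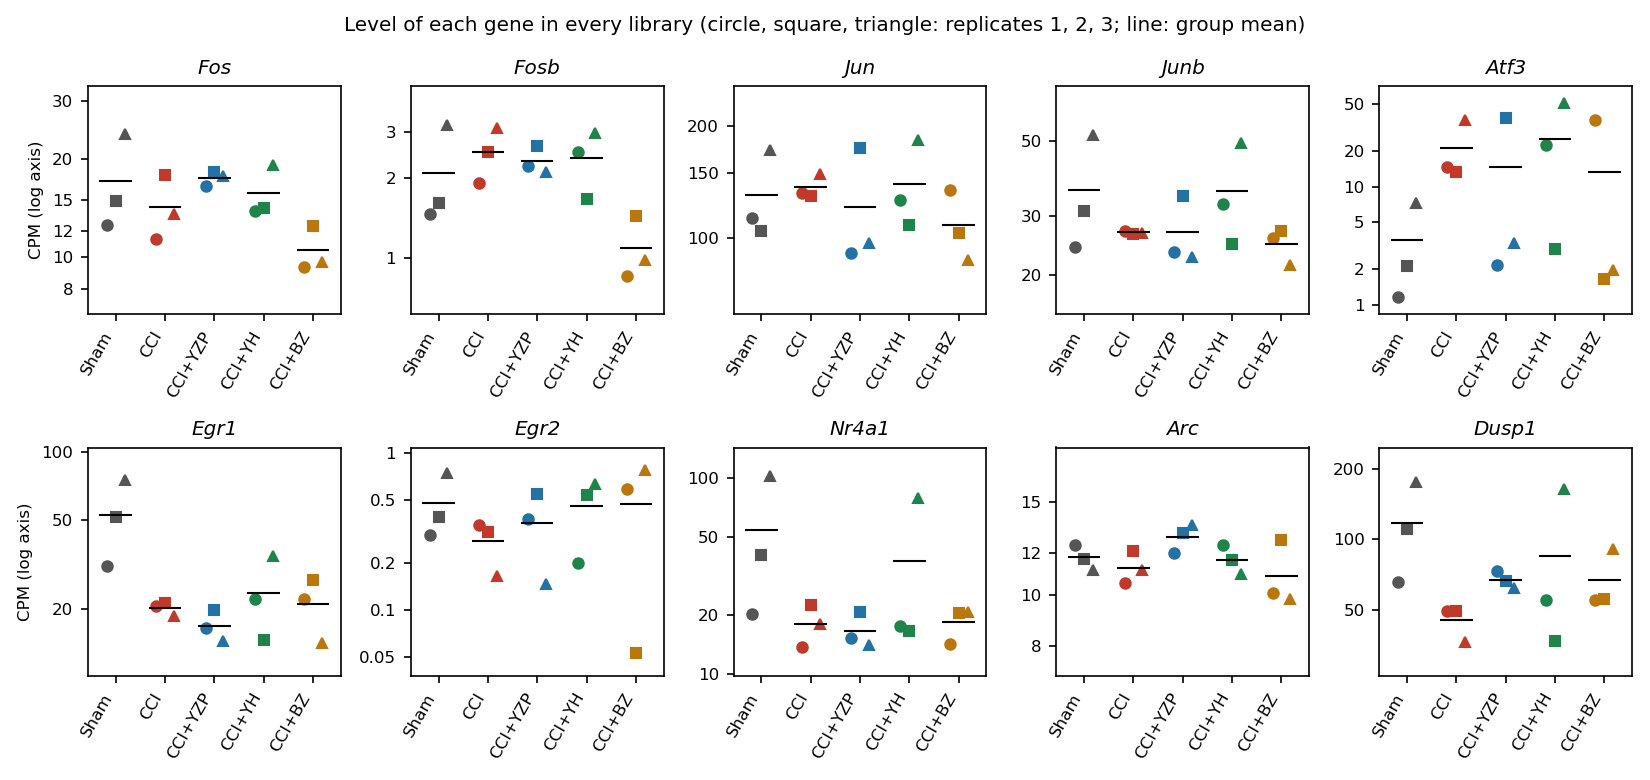
Level of each of the 10 genes in every library, in CPM on a log axis, by group; circles, squares and triangles are replicates 1, 2 and 3 and the line is the group mean. Atf3 is high in all 3 CCI libraries and splits each treated group, Egr1 is highest in Sham, and Arc stays between 9.83 and 13.6 CPM.

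Mean Atf3 was 21.5 ± 13.0 CPM in CCI against 3.55 ± 3.32 CPM in Sham (SD, n = 3 for both). This came to a log2 fold change of 2.60 (SE 1.35, 95% interval -0.30 to 5.51, edgeR adjusted p = 0.326), so the difference was not called in spite of its size. The model shares an estimate of each gene's spread over the 5 groups. In a fit of Sham and CCI alone the log2 fold change was 2.62 with an SE of 0.644 (edgeR adjusted p = 0.0763). Against CCI, Atf3 differed by a log2 fold change of -0.54 (95% interval -3.16 to 2.07) in YZP, 0.25 (-2.33 to 2.83) in YH and -0.68 (-3.31 to 1.95) in BZ. Single libraries moved these values: the YZP value was -2.95 without YZP replicate 2 and 0.069 without CCI replicate 3, and the BZ value was -3.56 without BZ replicate 1 and -0.067 without CCI replicate 3. The intervals hold changes of several fold either way, and a treatment effect on Atf3 was not resolved with 3 libraries a group.

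The within-group standard deviation of Atf3 was 1.88 on the log2 CPM scale, where the median gene had 0.156, and 52 of the 16522 genes had a larger one. The rest of the transcriptome differed between the same libraries. Among the 12 ligated libraries, the 7 with at least 13.2 CPM of Atf3 scored 9.12 to 31.0 on the first principal component of all other genes, which held 20.7% of the variance. The 5 with at most 3.33 CPM scored -25.1 to -9.62, and the Sham libraries scored -28.6, -25.2 and -22.8. The 3 most abundant genes of a library took 6.76% to 7.91% of counts in the 7 ligated libraries and 7.99% to 9.18% in the 5, beside 8.49% to 9.60% in Sham. With that percentage in the model the log2 fold change of Atf3 between CCI and Sham turned to -0.997 (SE 1.13, edgeR adjusted p = 0.905). The percentage also separated the 2 groups, at 6.78% to 7.55% in CCI, so the 2 cannot be told apart in this comparison.

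**Figure D2:**
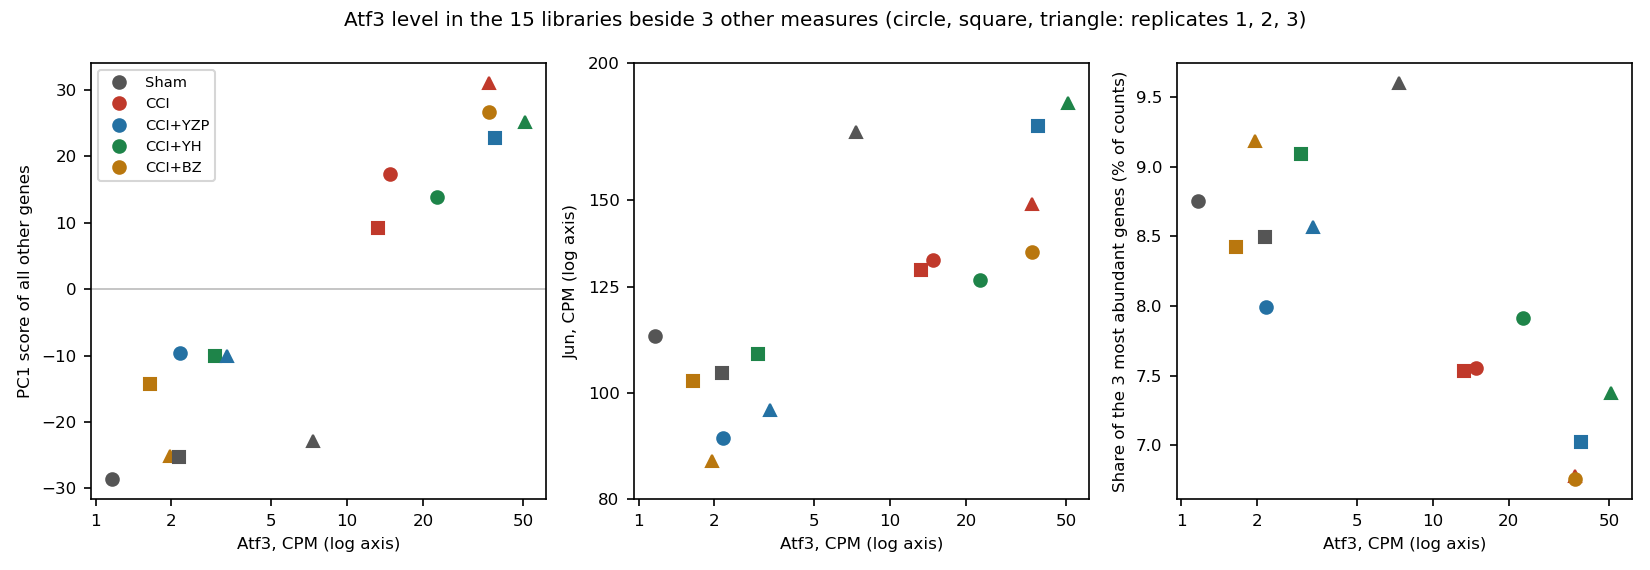
Atf3 level (CPM, log axis) of the 15 libraries against the first principal component of all other genes, the Jun level (CPM, log axis) and the percentage of counts in the top 3 genes; colours are groups and symbols are replicates. The 7 ligated libraries with at least 13.2 CPM of Atf3 lie above 0 on the component and the other 8 libraries lie below it.

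Jun, an AP-1 subunit that can pair with Atf3, had its highest library of each group in the same library as Atf3 in all 5 groups. Egr1 and Fos also shared their highest library in all 5. The order of the 3 libraries was the same for Jun and Atf3 in 3 of the 5 groups. Jun stood at 113, 104 and 173 CPM in Sham and at 132, 130 and 149 CPM in CCI. It held 91.0, 175 and 96.4 CPM in YZP, 127, 108 and 184 CPM in YH, and 135, 103 and 86.7 CPM in BZ. Libraries at or below 3.33 CPM of Atf3 held 86.7 to 113 CPM of Jun, and libraries at or above 7.34 CPM held 127 to 184 CPM, with no library between. The split was made on the Atf3 levels after these had been seen, so no test is given of it.

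As a group mean Jun was not called with ligation. CCI held 137 ± 10.4 CPM and Sham 130.0 ± 37.5 CPM (SD, n = 3 for both), which gave a log2 fold change of 0.07 (95% interval -0.50 to 0.65, edgeR adjusted p = 0.909), and the groups overlapped. Against CCI the log2 fold changes were -0.18 in YZP, 0.03 in YH and -0.34 in BZ, with edgeR adjusted p-values of 0.916, 0.993 and 0.828.

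Egr1, a zinc finger factor induced by synaptic activity and growth factors, was lower after ligation and was the only one of the 10 genes that edgeR called, in the comparison of all ligated groups with Sham. Sham libraries held 31.2, 51.1 and 74.7 CPM and CCI libraries 20.7, 21.2 and 18.7 CPM. YZP held 16.5, 19.8 and 14.4 CPM, YH 22.1, 14.6 and 34.3 CPM, and BZ 22.3, 27.1 and 14.1 CPM. Of the 12 ligated libraries 11 lay below the lowest Sham library, and the exception was YH replicate 3. The mean of the 4 ligated groups was below Sham by a log2 fold change of -1.36 (SE 0.233, 95% interval -1.87 to -0.86, edgeR adjusted p = 0.0422), a fold of 0.388. Among all genes 0.188% were called in that comparison. At an unadjusted p under 0.05, Egr1, Nr4a1 and Dusp1 were lower in the ligated groups, 3 of the 10, beside 7.60% of all genes.

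The call of Egr1 stood close to the threshold. It was lost with the percentage of counts in the top 3 genes as a covariate (edgeR adjusted p = 0.113, log2 fold change -1.60). It was also lost without Sham replicate 1 (adjusted p = 0.0651), Sham replicate 2 (0.101), Sham replicate 3 (0.141), CCI replicate 1 (0.0779), CCI replicate 3 (0.0733), YZP replicate 1 (0.0637), YZP replicate 2 (0.0505), YZP replicate 3 (0.0589) or YH replicate 1 (0.0713). The log2 fold change ran from -1.63 to -1.02 over the libraries left out, and adjusted p ran from 0.000627 to 0.141 over all alternatives.

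Between CCI and Sham alone, Egr1 stood at 20.2 ± 1.35 against 52.4 ± 21.8 CPM (SD, n = 3 for both), with no overlap, as in 12.9% of all genes. CCI lay below Sham by a log2 fold change of -1.37 (SE 0.324, 95% interval -2.07 to -0.68) with an edgeR adjusted p of 0.111, the 128th smallest p of all genes. DESeq2 called it (adjusted p = 0.0144) along with 3.12% of all genes, as did edgeR on these 2 groups (adjusted p = 0.0442) along with 2.67%, each with 9 of the 10 members tested, and over all alternatives adjusted p ran from 0.0144 to 0.406. The treated groups lay near CCI, with log2 fold changes against CCI of -0.26 in YZP, 0.23 in YH and 0.06 in BZ and edgeR adjusted p-values of 0.902, 0.962 and 0.979.

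Nr4a1 and Dusp1 had the same order of Sham over CCI with a wide spread in Sham. Nr4a1, an orphan nuclear receptor also known as Nur77, stood at 20.3, 40.3 and 102 CPM in Sham and at 13.7, 22.4 and 18.1 CPM in CCI. Here the groups overlapped, since CCI replicate 2 lay above Sham replicate 1. YZP held 15.3, 20.6 and 14.0 CPM, BZ held 14.2, 20.5 and 20.7 CPM, and YH held 17.6, 16.6 and 78.9 CPM. YH replicate 3 and Sham replicates 2 and 3 were thus the libraries above the rest. CCI against Sham had a log2 fold change of -1.58 (SE 0.592, 95% interval -2.86 to -0.31, edgeR adjusted p = 0.199), and it was -0.75 (adjusted p = 0.553) without Sham replicate 3.

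Dusp1 stood at 65.5, 111 and 177 CPM in Sham and at 49.2, 49.6 and 36.5 CPM in CCI. These 2 groups did not overlap, as in 12.9% of all genes. Dusp1 in CCI differed by a log2 fold change of -1.38 (SE 0.457, 95% interval -2.36 to -0.40, edgeR adjusted p = 0.165), and without Sham replicate 3 it was -0.96 (adjusted p = 0.368). YZP held 73.3, 66.3 and 61.8 CPM and BZ held 54.9, 55.8 and 90.9 CPM, so that every library of either group lay above every CCI library, as in 7.09% and 5.87% of all genes. Neither difference passed, at a log2 fold change of 0.57 in both, with 95% intervals of -0.41 to 1.55 and -0.40 to 1.55 and edgeR adjusted p-values of 0.833 and 0.830. These intervals use the spread shared over the 5 groups. In fits of each group with CCI alone the SE was 0.124 for YZP and 0.211 for BZ. Neither difference passed there (edgeR adjusted p = 0.474 and 0.786). YH held 54.9, 36.9 and 164 CPM and overlapped CCI, with a log2 fold change of 0.92 (95% interval -0.06 to 1.90, edgeR adjusted p = 0.912), and of 0.02 without replicate 3. The 3 comparisons share the CCI libraries.

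The AP-1 subunit genes Fos and Fosb had their lowest group means in BZ, as had Jun, Junb and Arc, and none of these was called against CCI. Fosb, which also gives rise to the long-lived product deltaFosB, stood at 0.854, 1.43 and 0.983 CPM there, from 16, 27 and 19 counts. It stood at 1.93, 2.50 and 3.09 CPM in CCI, and the groups did not overlap, as in 5.88% of all genes. The difference was a log2 fold change of -1.19 (SE 0.333, 95% interval -1.91 to -0.48) and was not called (edgeR adjusted p = 0.606, with a range of 0.281 to 0.999 over its alternatives). Fosb held 1.46, 1.61 and 3.19 CPM in Sham, 2.22, 2.64 and 2.10 CPM in YZP, and 2.51, 1.66 and 2.97 CPM in YH. CCI and Sham overlapped, with a log2 fold change of 0.26 (edgeR adjusted p = 0.701).

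Fos held 9.34, 12.5 and 9.68 CPM in BZ and 11.4, 17.8 and 13.6 CPM in CCI, with an overlap of 1 library from each side and a log2 fold change of -0.44 (95% interval -0.93 to 0.04, edgeR adjusted p = 0.773). In the other groups, Sham held 12.6, 14.9 and 23.9 CPM, YZP 16.5, 18.3 and 17.7 CPM, and YH 13.9, 14.2 and 19.1 CPM. The mean of Fos in CCI did not lie above Sham on day 10, with a log2 fold change of -0.26 (95% interval -0.74 to 0.22, edgeR adjusted p = 0.567). As folds the interval ran from 0.599 to 1.16 of the Sham level. The sign rested on Sham replicate 3. Without that library the log2 fold change was 0.056 (SE 0.193, edgeR adjusted p = 0.923).

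Junb, a partner of Fos in AP-1, held 24.2, 31.1 and 52.1 CPM in Sham and 27.1, 26.5 and 26.8 CPM in CCI. The 3 CCI libraries lay within 1.02-fold of each other and inside the Sham range, with a log2 fold change of -0.42 (95% interval -0.998 to 0.16, edgeR adjusted p = 0.433). YZP held 23.5, 34.4 and 22.6 CPM, YH 32.6, 24.8 and 49.5 CPM, and BZ 25.8, 27.1 and 21.4 CPM. None of the 3 differed from CCI beyond their spread (edgeR adjusted p 0.936 to 0.999).

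Neither Arc nor Egr2 was called in any comparison, Arc with the narrowest intervals of the 10 genes and Egr2 with wide ones. Arc lay between 9.83 and 13.6 CPM in all 15 libraries, a range of 1.38-fold, and its group means ran from 10.9 ± 1.61 CPM in BZ to 12.9 ± 0.815 CPM in YZP (SD, n = 3 for both). Its log2 fold change of CCI against Sham was -0.06, with a 95% interval of -0.30 to 0.17 (edgeR adjusted p = 0.794) that holds changes of at most 1.12-fold up and 0.814 down. Its largest difference from CCI was 0.20 in YZP (95% interval -0.04 to 0.43, edgeR adjusted p = 0.762). Egr2, the Krox20 factor of myelinating Schwann cells, had 6 to 14 counts in Sham, 3 to 8 in CCI, 3 to 10 in YZP, 3 to 11 in YH and 1 to 15 in BZ. Its 95% interval for CCI against Sham ran from -2.26 to 0.77 on the log2 scale, which holds folds from 0.208 to 1.70.

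**Figure D3:**
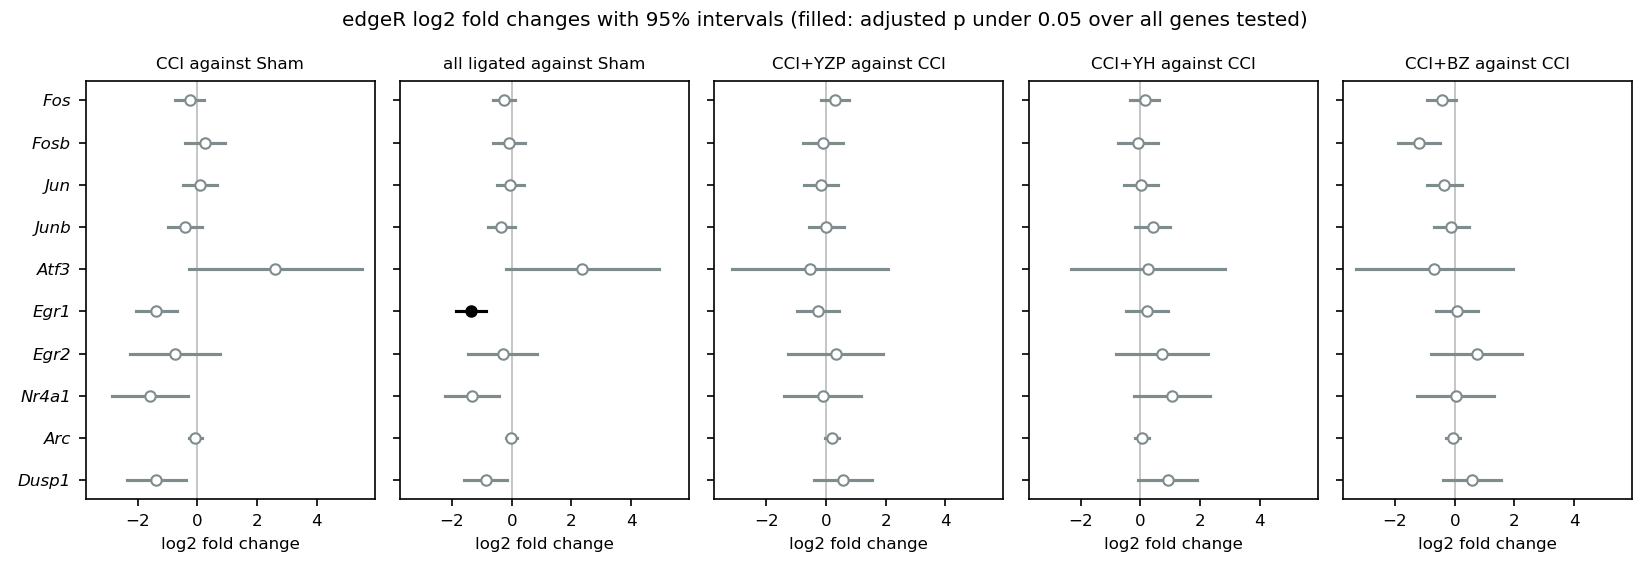
edgeR log2 fold changes of the 10 genes in 5 comparisons with 95% intervals; filled points have an adjusted p under 0.05 over all genes tested. Egr1 in all ligated groups against Sham is the filled point, Atf3 has the widest intervals in each comparison, and Arc has the narrowest.

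Read over the 10 genes, CCI against Sham had 0 called by edgeR, against 0.0182% of all genes, and 3 with an unadjusted p under 0.05, all lower (Egr1, Nr4a1 and Dusp1), against 8.34% of all genes lower at that level. Atf3 was the 1 gene with all CCI libraries above all Sham libraries, where 13.2% of all genes were, and Egr1 and Dusp1 were the 2 below, where 12.9% were. The median log2 fold change was -0.34, with 3 genes above 0 and 7 below, beside a median of -0.0015 over all genes tested. For all ligated groups against Sham 9 of the 10 were below 0, where 48.9% of all genes were above 0, with a median of -0.28 beside -0.0037. Without Sham replicate 3 the count below 0 was 4 of the 10, with a median of 0.042. In CCI against Sham, leaving out the same library left 6 of the 10 below 0, with a median of -0.073.

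Against CCI, edgeR called 0 of the 10 in each treated group, where 0.00605%, 0.00% and 0.00% of all genes were called in YZP, YH and BZ. DESeq2 called 0 of the 9, 10 and 9 members to which it gave an adjusted p, with 0.140%, 0.0788% and 0.145% of all genes called. Limma voom called 0 of the 10 in each, with 0.00605%, 0.00% and 0.00% of all genes called. At an unadjusted p under 0.05 there were 0, 0 and 1 of the 10, the last being Fosb, beside 6.93%, 5.59% and 6.63% of all genes. The median log2 fold change of the 10 was -0.05 in YZP, 0.24 in YH and -0.08 in BZ, beside 0.0019, -0.0019 and -0.0026 over all genes. In YH 9 of the 10 were above 0, beside 49.3% of all genes, and replicate 3 was the highest library of that group for 9 of the 10. Without that library 4 of the 10 were above 0, with a median of -0.052. Nr4a1 then went from a log2 fold change of 1.06 to -0.082 and Atf3 from 0.25 to -0.76. An F test for any difference among the 5 groups called 0 of the 10, with 0.0908% of all genes called. DESeq2 called 1 (Egr1) in this test, with 2.07% of all genes called. At an unadjusted p under 0.05 the edgeR F test gave 4 (Fos, Fosb, Egr1 and Nr4a1), beside 10.5% of all genes.

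In 3 of the 5 groups most of these genes were highest in the same library. Sham replicate 3 was the highest Sham library for 9 of the 10 genes, YH replicate 3 the highest of its group for 9, and YZP replicate 2 for 8. In CCI and BZ the genes were divided, with at most 5 highest in 1 library. In Sham and YH the exception was Arc. In YZP replicate 2 the exceptions were Arc and Dusp1. The share of all genes that were highest in these libraries was not counted. Whether the pattern is particular to this gene set was therefore not tested.

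**Figure D4:**
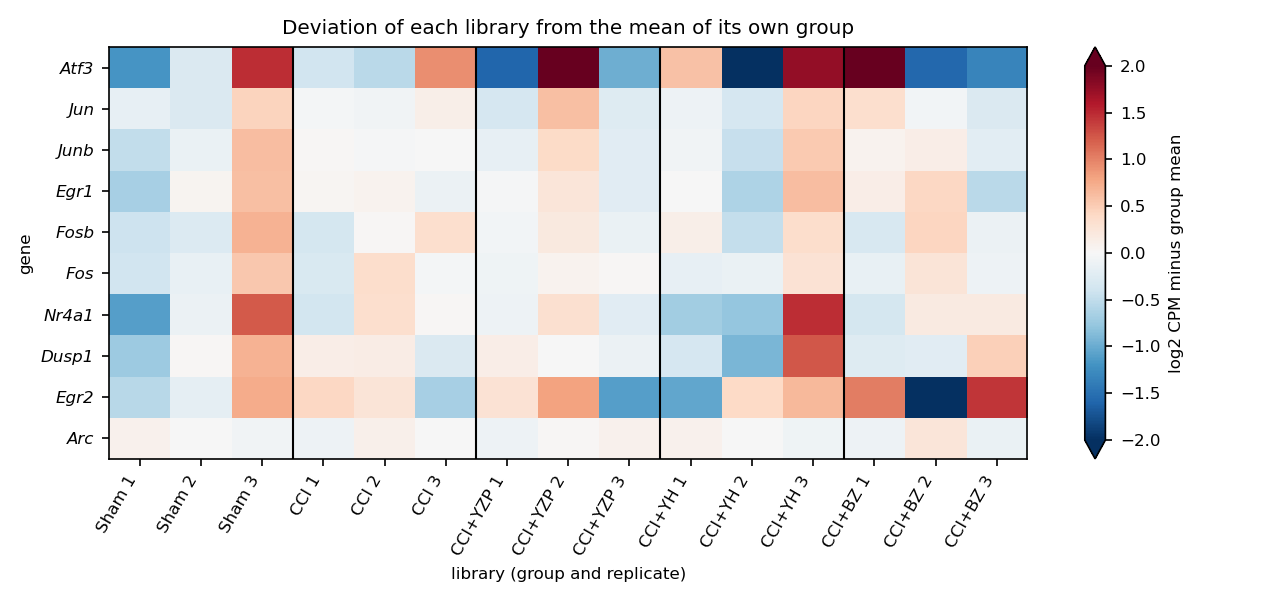
Deviation of each library from the mean of its own group in log2 CPM, for the 10 genes; colours are cut at -2 and 2. Sham replicate 3 and YH replicate 3 are above their group means in 9 of the 10 genes, and Arc stays near 0 throughout.

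The pairs were tested by correlating deviations from the group means in log2 CPM over the 15 libraries, with exact permutation of libraries within groups (7776 arrangements, two-sided) and adjustment over the 45 pairs. In 37 of the 45 pairs r was above 0. After adjustment 3 pairs passed, all with r above 0. One of them was Jun with Atf3 (adjusted permutation p = 0.0251), for which no r is given, since the Atf3 levels fall into 2 ranges. It missed the threshold without Sham replicate 3 (adjusted permutation p = 0.0752), YZP replicate 2 (0.0752), YH replicate 1 (0.0564), YH replicate 2 (0.0564) or YH replicate 3 (0.0738). By Spearman's rho the pair did not pass (adjusted permutation p = 0.0521). Among the 8 libraries at or above 7.34 CPM of Atf3, r with Jun was 0.229 and rho 0.548. Among the 7 others they were -0.290 and -0.25 (exact permutation p of 0.171 or more for all). Without the 2 libraries of each range farthest from its Atf3 median, r was 0.753 in the upper range and 0.380 in the lower. The ranges were set after the levels had been seen and pool libraries of different groups. These values therefore do not decide whether Jun and Atf3 vary together within a range. Of 16512 other genes, 92 had r of at least 0.9 with Atf3 and 30 with Jun. Before adjustment 17 pairs had a p under 0.05. The counts of pairs were not set beside counts for pairs drawn from all other genes. Whether such counts are particular to this gene set was therefore not tested. Junb with Egr1 had r = 0.924 (exact permutation p = 0.000514, adjusted 0.0231) and Spearman's rho 0.929 (exact p = 0.00141, adjusted 0.0376). Without YH replicate 3 and Sham replicate 3, the 2 libraries farthest from the Junb median, r was 0.848. The order of the 3 libraries was the same for both genes in 4 of the 5 groups.

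Fos with Nr4a1 had r = 0.849 (exact permutation p = 0.00116, adjusted 0.0251) and rho 0.879 (exact p = 0.00167, adjusted 0.0376), with r = 0.746 without Sham replicate 3 and BZ replicate 1. Nr4a1 with Dusp1 had r = 0.889 but did not pass (exact permutation p = 0.0152, adjusted 0.0569; rho 0.782, exact p = 0.0153, adjusted 0.0861). It fell to r = 0.523 without Sham replicate 3 and YH replicate 3, and so rested in part on those libraries. Leaving out a library also leaves fewer arrangements. Junb with Egr1 then missed the threshold without Sham replicate 3 (adjusted permutation p = 0.0694), YZP replicate 2 (0.0694), YH replicate 1 (0.0564), YH replicate 2 (0.0564) or YH replicate 3 (0.0694), with r between 0.895 and 0.949 over all libraries left out. Fos with Nr4a1 missed it without any Sham library (0.0521, 0.0521 and 0.0752), YZP replicate 2 (0.0694) or any YH library (0.0564, 0.0564 and 0.0738), with r between 0.759 and 0.885.

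**Figure D5:**
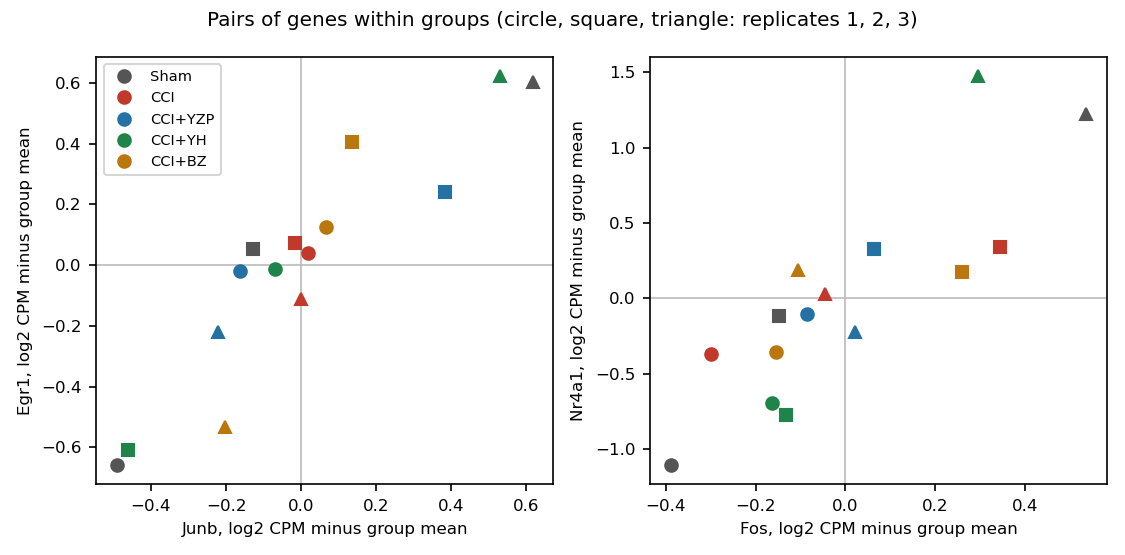
Deviations from the group mean in log2 CPM for Junb against Egr1 and for Fos against Nr4a1, 15 libraries; colours are groups and symbols are replicates. In both panels Sham replicate 3 and YH replicate 3 lie at the upper right and Sham replicate 1 lies at the lower left.

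The spread within groups differed between the genes. On the log2 CPM scale the within-group standard deviation was 0.810 for Nr4a1, 0.806 for Egr2, 0.633 for Dusp1, 0.461 for Egr1, 0.392 for Fosb, 0.376 for Junb, 0.373 for Jun and 0.301 for Fos. Among genes with a mean log2 CPM within 0.5 of their own, Nr4a1 and Dusp1 stood at percentiles 99.5 and 99.5 of this spread, Jun at 99.1, Junb at 97.9, Egr1 at 97.8, Fos at 91.8, Egr2 at 81.5 and Fosb at 69.1. Arc, with 0.122, stood at percentile 25.5 and was less variable between libraries than the median gene.

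The genes most like the 10 in pattern were sought among all others, by correlation of within-group deviations with the mean standardised deviation of the 10 over 15 libraries. ENSRNOG00000003300 had r = 0.935 and ENSRNOG00000007830 had r = 0.929, and the tables do not pair either with a symbol. ENSRNOG00000007830 stood at 28.3, 86.1 and 208 CPM in Sham and at 29.1, 15.7 and 163 CPM in YH, with 16.5 to 36.4 CPM in the other 9 libraries. As in Nr4a1, Sham replicates 2 and 3 and YH replicate 3 were the high libraries.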

How the data were processed

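RNA-seq of 15 rat spinal cord libraries was used. The values the authors deposited are whole-number counts, in a separate table for each library. DESeq2 1.16.1 and the build rn4 are named in the submitters' processing notes. Aligner, counter, annotation and strand setting: not given in the sources used here. The tables carry 32883 Ensembl identifiers and no symbols, and the reference table gave an Ensembl identifier for 0 genes. Lists of other pathway genes and of cell type markers were therefore not tested, and tissue markers not checked.

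With edgeR 4.0.16 (R 4.3.3), genes were filtered by filterByExpr (minimum count 10), scaled by TMM and fitted by glmQLFit with 5 group coefficients, 10 residual degrees of freedom. Intervals are 95%. Log2 CPM used a prior count of 2. Alternatives used DESeq2 1.42.0 and limma 3.58.1. Pair tests ran in Python 3.11.15. Fits and pair tests were tested on simulated data. Same-group libraries differed beyond sampling noise (chi-square per gene 7.06 to 27.0). All 10 genes are named, and the 2 others are those of highest likeness. The 2 ranges of Atf3 meet at the widest gap leaving at least 6 libraries a side. The genes and lists were chosen with earlier results of these data known.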

Additional observations from a re-analysis of the deposited data

How the results depend on the processing

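Of 1765 recomputed values of single genes and pairs, 1658 kept their direction and their side of the threshold, 30 no longer passed it, 32 newly passed it and 45 changed direction, none of the last with an adjusted p under 0.587. The pairs in this count are the 17 of 45 with an unadjusted permutation p under 0.05 in the main test. Changes in the other pairs are not counted in it. Against CCI, 0 of the 8 to 10 members tested were called in each treated group under every alternative run: at a mean count of at least 50 there were 8, in the fits of 2 groups 9, and DESeq2 gave an adjusted p for 9 or 10. For CCI against Sham the count of called genes was 0, and 1 (Egr1) by DESeq2 and in the fit of the 2 groups alone. For any difference among the groups it was 0, and 1 (Egr1) by DESeq2, which called 334 genes in all, 2.07% of those with an adjusted p. For all ligated groups against Sham it was 1 (Egr1), 0 with the top 3 genes' percentage as a covariate, and 0 to 1 without 1 library. Replicate numbers did not pair the libraries: within-group deviations of same-numbered libraries correlated at -0.167 to 0.143 over 30 pairs, and 4 of 15 libraries correlated best with their own number. With a replicate block, Egr1 in the ligated groups had an edgeR adjusted p of 0.0935 (0 called), and 1 pair of genes (Junb with Egr1) passed in place of 3 (adjusted permutation p = 0.0791 for Jun with Atf3 and 0.140 for Fos with Nr4a1). Without 1 library 0 to 12 pairs passed. The cause of these shifts was not tested. Over all genes, calls in CCI against Sham went from 3 to 484 by DESeq2, 940 by limma voom with quality weights, 428 in the fit of 2 groups and 0 with the covariate. In the ligated groups against Sham they went from 31 to 472, 790 and, with the covariate, 6, and 11 with the block. In YZP, YH and BZ against CCI, DESeq2 called 20, 13 and 23 where edgeR called 1, 0 and 0.

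Log2 fold changes that changed direction were, with the covariate, Jun -0.39 and Atf3 -0.997 in CCI against Sham, Atf3 -0.79 in the ligated groups and Junb 0.0034 in BZ. With limma voom they were Junb -0.026 in YZP, and Jun -0.0053 and Atf3 -0.43 in YH. With quality weights they were Junb -0.11 and Egr2 -0.0065 in YZP, Atf3 -0.014 in YH, Egr2 -0.32 and Arc 0.00063 in BZ, and Fosb 0.18 in the ligated groups. Leaving out 1 library gave ranges across 0. In CCI against Sham they were -0.45 to 0.056 for Fos and -0.062 to 0.33 for Jun. In YZP against CCI they were -0.27 to 0.068 for Fosb, -0.22 to 0.11 for Junb, -2.95 to 0.069 for Atf3, -0.14 to 0.73 for Egr2 and -0.30 to 0.073 for Nr4a1. In YH against CCI they were -0.023 to 0.33 for Fos, -0.27 to 0.13 for Fosb, -0.22 to 0.18 for Jun, -0.76 to 0.86 for Atf3, -0.14 to 0.48 for Egr1 and -0.082 to 1.42 for Nr4a1. In BZ against CCI they were -0.15 to 0.29 for Egr1, -0.13 to 0.22 for Nr4a1 and -0.18 to 0.018 for Arc. In the ligated groups against Sham they were -0.44 to 0.055 for Fos, -0.28 to 0.35 for Fosb, -0.19 to 0.21 for Jun, -0.56 to 0.029 for Junb, -0.54 to 0.15 for Egr2 and -0.053 to 0.026 for Arc. Egr2 rests on 1 to 15 counts per library and Fosb on 16 to 60. Whether depth sets their error was not tested.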
